A study of Mus musculus with 8 samples.

Results

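Tripartite motif (TRIM) genes were described here as the rows of the count table whose symbol starts with Trim followed by a digit. This rule, which uses no measured value, found 35 of the 11354 genes in the table. RefSeq's GRCm38 gene table lists 69 genes whose symbols follow the same pattern, 68 of them protein coding, and those without a row were not analysed here. Each of the 35 members had at least 47 counts in every library, and at least 1.22 CPM, the counts scaled to a library's effective total, so none entered through 1 group alone.

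The libraries hold poly(A) RNA of CD4 T cells of the Black6 background that had been transferred into RAG-/- hosts, mice without mature lymphocytes of the T and B lineages that still have myeloid and other innate cells. Donor cells were labelled Wild Type in 4 libraries and Nlrp6-/- in another 4, each time from hosts 1, 2, 4 and 5, and the targeted gene encodes a NOD-like receptor whose deleted part is not described. Both kinds of cells were transferred in equal numbers, but the labels do not state whether equal host numbers mean the same mouse, nor the hosts' age, nor whether the RAG mutation is that of Rag1 or Rag2. One label places the cells in the spleen of the host and the extraction protocol places them in the lamina propria of the colon.

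Totals ranged from 35198192 to 40310721 counts per library. Nlrp6 itself went against the labels, with 3 to 8 counts in the libraries labelled wild type and 329 to 648 in those labelled knock-out, so that every direction below is that of libraries labelled in 1 way or the other and not of a genotype. The T cell markers were high under both labels, with Cd3e at 527 ± 39.7 and 504 ± 26.6 CPM and Cd4 at 1446 ± 112 and 1222 ± 174 CPM in libraries labelled wild type and knock-out (SD, n = 4 each). Of 14 T cell genes, 2 fell and 0 rose in edgeR's quasi-likelihood test (14.3% called, against 10.0% of all genes), Zap70 (log2 fold change -0.27, adjusted p = 0.0304) and Cd247 (-0.40, adjusted p = 0.0444). Of the 14 log2 fold changes 12 were negative, with a median of -0.10. Among 20 myeloid markers, none of them at 0 in any library, 19 rose and 0 fell. Their sum ranged from 53.8 to 92.9 CPM under the wild-type label and from 321 to 1011 CPM under the knock-out label (two-sided exact permutation p = 0.0286, adjusted p = 0.0763 over 8 marker lists, n = 4 each). With 4 libraries a label, 0.0286 is the smallest p that this test can give, which also limits the adjusted value. In these bulk libraries, fewer cells of a type and less RNA per cell cannot be told apart.

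TRIM proteins are built on a shared front end, in most members a RING finger that transfers ubiquitin, followed by B-box zinc fingers and a coiled coil, and they differ in the C-terminal domain that picks the target. Many are induced by interferon and act in antiviral defence, either on viral parts directly or on the sensors and adaptors of innate signalling. Others sit at chromatin, such as Trim28, the co-repressor recruited by KRAB zinc finger proteins, or control protein turnover in cells at rest. In CD4 T cells the family is known for chromatin silencing by Trim28 and for tuning of receptor signals, for example by Trim27.

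The interferon-inducible members were set apart from the rest by a list of 17 names, of which 11 had a row: Trim12a, Trim12c, Trim14, Trim21, Trim25, Trim26, Trim30a, Trim30d, Trim34a, Trim34b and Trim56. A second feature, which neither the rule nor the list used, is the sequence at the start of these genes. The letters GAAANNGAAA, the core of the interferon-stimulated response element, were searched on both strands in RefSeq's windows of 300 bases, from 250 before to 50 after a gene's start (GRCm38.p6). Windows were given for 25 of the 35 members, some of which have several, and a gene was counted once if any of its windows held the letters. A match was found for 7 of 10 interferon-inducible members with a window and for 0 of 15 other members, against 3.99% of the 27025 genes with a window. Because the list holds genes induced by interferon, an interferon-stimulated element at their start is not independent of the list. Several of the 7 are related genes in a run on chromosome 7, so they are not independent cases either. The letters TTCNNNGAA, the core of the gamma-activated site, were found in 0 of the 10 and in 2 of the 15 (Trim45 and Trim46), against 9.55% of all genes with a window. The windows of Trim25, Trim34b and Trim56 held neither set of letters, which says nothing about binding elsewhere.

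The matches are shown because they are the sequence feature that most of the interferon-inducible members share. Each line gives 30 bases of 1 window per gene in the direction of transcription, with the match, or 2 overlapping matches in Trim21 and Trim26, in capitals. On this strand it reads as the reverse complement in each gene but Trim21.
Trim12a, chr7:104315466-104315495, minus strand: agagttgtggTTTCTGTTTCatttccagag
Trim12c, chr7:104353359-104353388, minus strand: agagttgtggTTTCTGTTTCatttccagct
Trim30a, chr7:104465210-104465239, minus strand: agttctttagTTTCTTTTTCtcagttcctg
Trim30d, chr7:104507871-104507900, minus strand: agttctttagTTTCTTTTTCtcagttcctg
Trim34a, chr7:104244457-104244486, plus strand: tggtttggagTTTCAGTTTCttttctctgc
Trim21, chr7:102565447-102565476, minus strand: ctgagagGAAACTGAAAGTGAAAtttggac
Trim26, chr17:36836979-36837008, plus strand: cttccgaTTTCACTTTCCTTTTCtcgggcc
The 30 bases of Trim30a and Trim30d are identical. A second window of Trim30a, at a start inside the gene, also held a match (within chr7:104446104-104446133), which is not shown. Positions are counted from the transcript start on which RefSeq's window is built, taken as base 1, which in several genes is not the outer end of the gene. The capitals begin at base 11 in Trim12a and Trim34a and at base 14 in Trim21, and they begin 29, 36, 41 and 160 bases before the start in Trim12c, Trim30a, Trim30d and Trim26.

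The 35 members spanned a 224-fold range of level when CPM were divided by the gene length given in the table (CPM per kilobase, the scale used here for levels between genes). Trim28 was highest, at 63.8 CPM per kilobase under the wild-type label and 64.1 under the knock-out label, and its 8 libraries all lay above those of the next gene, Trim59 (42.0 and 43.6). Trim59 encodes a membrane-anchored member. By the mean over all 8 libraries Trim30a (31.2 and 30.4) followed, and then Trim8 (34.4 and 22.9) and Trim12a (25.8 and 31.1). The order of Trim30a, Trim8 and Trim12a differed between the labels. Trim45 was lowest, at 0.316 and 0.255 CPM per kilobase. In the order of the 35 levels, 27 of 34 neighbouring pairs overlapped in their libraries, so most adjacent places are not resolved. The median level was 10.2 CPM per kilobase over the members and 10.3 over all genes of the table. It was 15.5 over the 11 interferon-inducible members and 6.09 over the 24 others. Gene lengths are those of the annotation and not of the isoforms present, which limits such comparisons.

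**Figure D1:**
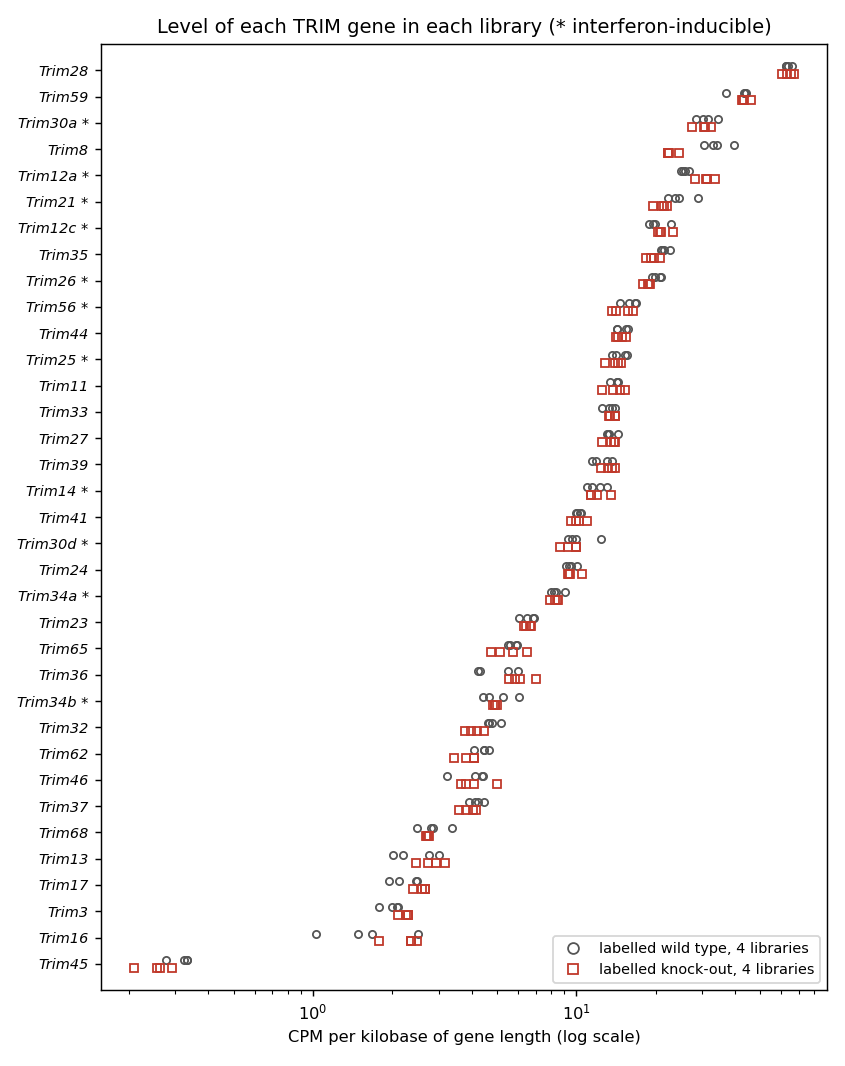
Level of each of the 35 TRIM genes in each library, in CPM per kilobase of gene length on a log axis, ordered by the mean over 8 libraries. Circles are the 4 libraries labelled wild type, squares the 4 labelled knock-out, and an asterisk marks an interferon-inducible member. The circles and squares overlap for 28 genes and lie apart for 7: Trim3, Trim8, Trim12a, Trim21, Trim26, Trim32 and Trim35.

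Most TRIM genes kept their level between the labels to within a small margin. In edgeR's quasi-likelihood test across all genes, 1 of the 35 rose (Trim12a) and 1 fell (Trim8) in the libraries labelled knock-out at a Benjamini-Hochberg adjusted p below 0.05, which is 5.71% of the members. Over all 11354 genes the same test called 10.0%, 6.20% higher and 3.84% lower, and the members' share rests on 1 gene in each direction. Among the interferon-inducible members 1 of 11 was called (9.09%), and among the others 1 of 24 (4.17%). The log2 fold changes had a median of -0.05 over the interferon-inducible members and -0.0010 over the others, against -0.0026 over all genes. In absolute size their medians were 0.07, 0.08 and 0.09 in the same order. Leaving out 1 library at a time moved the first median between -0.09 and 0.01 and the second between -0.02 and 0.03.

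The precision behind the uncalled members was high for most of them. The coefficient of variation of CPM over the 4 libraries of a label had a median of 6.49% for the wild-type label and 6.11% for the knock-out label over the 35 genes. Of the 33 members that did not pass, 23 had a 95% interval of the fold change that lay wholly within 1.25-fold in either direction, 31 within 1.5-fold and 33 within 2-fold. The 2 with an interval beyond 1.5-fold were Trim16 and Trim45. Trim16, at 4.96 to 12.1 CPM under the wild-type label and 8.61 to 12.0 under the knock-out label, had the largest uncalled difference, 0.42 (95% interval -0.10 to 0.95). For genes like these a difference of that size was not detectable against the spread between libraries.

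**Figure D2:**
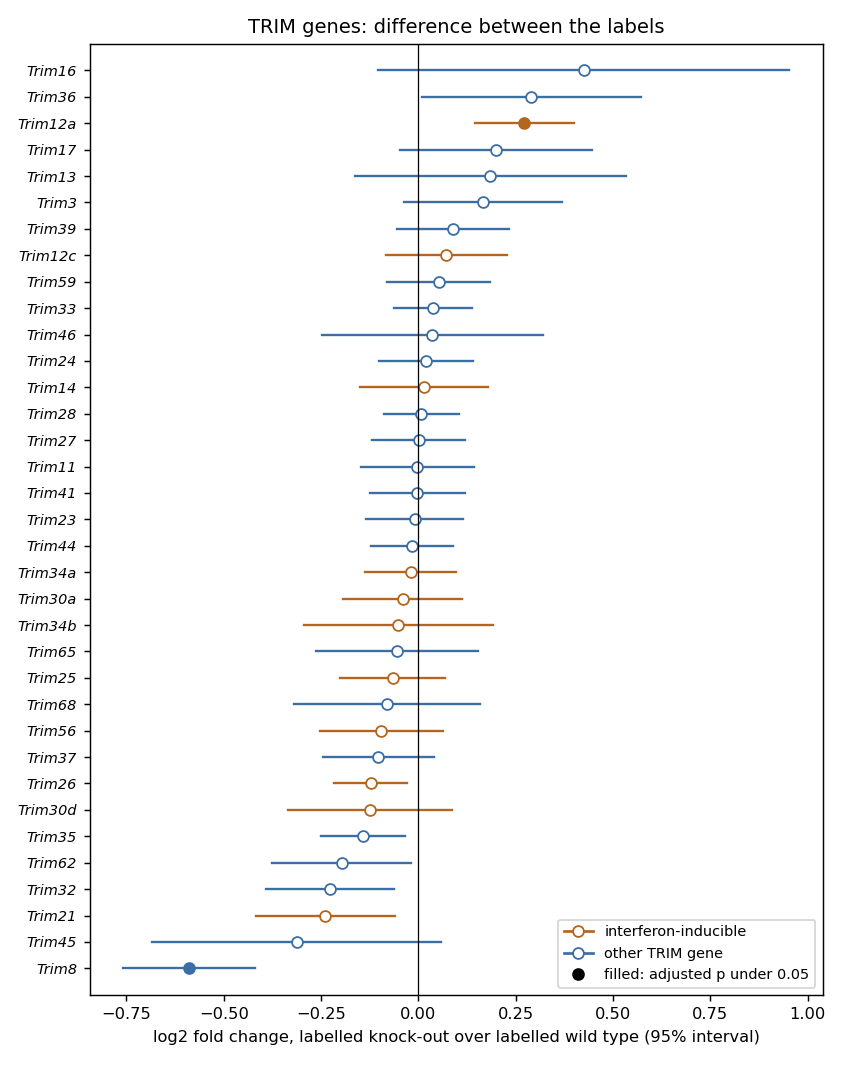
Log2 fold change of each TRIM gene, knock-out label over wild-type label, with its 95% interval from edgeR's quasi-likelihood fit (4 libraries a label). Orange marks interferon-inducible members and blue the others, and a filled point is a gene with an adjusted p below 0.05. Trim8 (-0.59) and Trim12a (0.27) are the filled points, and the interval of Trim16 is the widest.

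Trim8 fell in the libraries labelled knock-out. It encodes a RING ligase known for promoting NF-kB signalling downstream of TNF and IL-1 receptors and for binding the cytokine signalling inhibitor SOCS1, and it is not on the interferon list. Trim8 occupies bases 46501648 to 46516805 of chromosome 19 (GRCm38). Its level was 129, 111, 99.3 and 107 CPM in the libraries labelled wild type of hosts 1, 2, 4 and 5, and 72.8, 72.2, 79.3 and 72.2 CPM in those labelled knock-out. Every library labelled wild type lay above every library labelled knock-out, with host 1 the highest of the former and host 4 the highest of the latter. The means were 112 ± 12.3 and 74.1 ± 3.49 CPM (SD, n = 4 each). The log2 fold change was -0.59 ± 0.08 (SE, edgeR adjusted p = 0.000997, 95% interval -0.76 to -0.42), a change of -33.5%.

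Myeloid markers moved with the labels as well, so their levels stand beside those of Trim8. The mean log2 CPM of the 20 myeloid genes was 1.28, 0.954, 0.497 and 0.955 in the libraries labelled wild type of hosts 1, 2, 4 and 5, and 3.26, 4.13, 4.87 and 4.46 in those labelled knock-out. Under the wild-type label Trim8 was highest in host 1, the library with most of these markers, and lowest in host 4, the library with least. Under the knock-out label Trim8 was within 72.2 to 72.8 CPM in hosts 1, 2 and 5 and at 79.3 CPM in host 4, where the markers were highest. These orders rest on 4 libraries a label, and the part of other cells in the level of Trim8 was not tested. With the myeloid level as a covariate the log2 fold change of Trim8 was -1.02 ± 0.24 and did not pass (edgeR adjusted p = 0.441), where the covariate separates the labels without overlap and the median standard error of the 35 genes grew from 0.07 to 0.25. A term for a code in the sample descriptions, 8 in hosts 4 and 5 of the knock-out label and 7 in the other 6 libraries, gave -0.62 (adjusted p = 0.00603). Trim8 kept its call in 8 of 8 fits that left out 1 library, with adjusted p from 0.00104 to 0.00464.

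**Figure D3:**
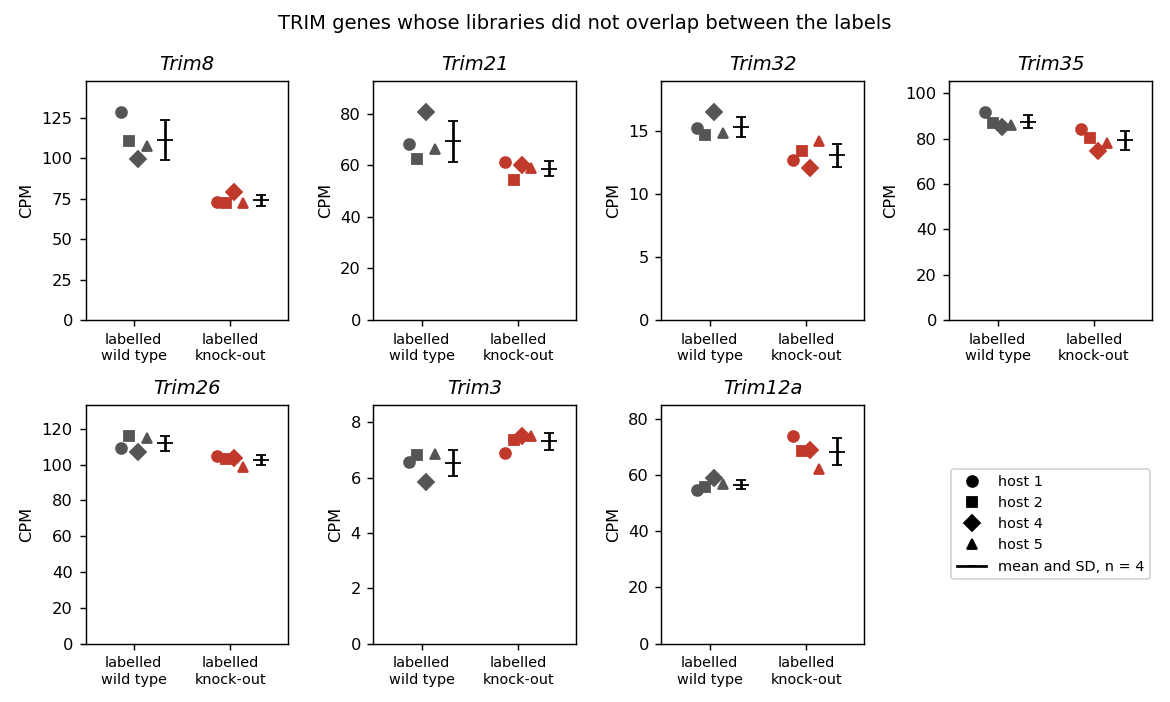
CPM in each library for the 7 TRIM genes whose libraries did not overlap between the labels, each panel starting at 0. Marker shape gives the host number, and the bar at the right of each group is the mean and SD of 4 libraries. Trim8 shows the widest gap between the labels, from 79.3 to 99.3 CPM.

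Trim12a rose in the libraries labelled knock-out. It is one of the mouse relatives of the retrovirus restriction factor TRIM5 and lies in a run of TRIM genes on chromosome 7. Its level was 54.8, 55.8, 58.8 and 56.8 CPM in the libraries labelled wild type of hosts 1, 2, 4 and 5, and 73.9, 68.3, 68.9 and 62.0 CPM in those labelled knock-out. The groups did not overlap, and host 5 of the knock-out label came closest to the wild-type label. The means were 56.5 ± 1.72 and 68.3 ± 4.85 CPM (SD, n = 4 each), and the log2 fold change was 0.27 ± 0.06 (SE, edgeR adjusted p = 0.0137, 95% interval 0.15 to 0.40), or 20.8% higher. The call ended without host 1 of the wild-type label (0.25, adjusted p = 0.0520) and without hosts 2 and 4 of the knock-out label together (0.26, adjusted p = 0.0875). With the myeloid level as a covariate the value was 0.60 ± 0.19 and did not pass (adjusted p = 0.689).

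The neighbours of Trim12a on chromosome 7 are TRIM genes on the interferon list, and Trim34b was the one of them whose window did not hold the response element letters. In the order Trim34a, Trim12a, Trim34b, Trim12c, Trim30a and Trim30d, 6 members lie within 263406 bases of chromosome 7, from 104244448 to 104507853 (GRCm38). The log2 fold changes in that order were -0.02, 0.27, -0.05, 0.07, -0.04 and -0.12, and Trim12a was the one that passed. Trim12c, a close relative, was at 74.3, 73.3, 85.6 and 70.5 CPM in hosts 1, 2, 4 and 5 under the wild-type label and at 76.1, 77.8, 87.2 and 78.2 CPM under the knock-out label. These groups overlapped (0.07 ± 0.07, SE, 95% interval -0.08 to 0.23, edgeR adjusted p = 0.607). Chromosome 7 also carries the targeted gene Nlrp6, and it holds 10 of the 35 members and 7 of the 11 on the interferon list.

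The log2 ratio of the CPM of Trim12a to that of each neighbour is given as a description with no test, since the 5 ratios were chosen after Trim12a was called. The ratio to Trim30a went from -1.69 ± 0.08 to -1.38 ± 0.07 (SD, n = 4 each), the ratio to Trim30d from 0.55 ± 0.15 to 0.94 ± 0.05 and the ratio to Trim34a from 0.66 ± 0.04 to 0.95 ± 0.07. For these 3 the libraries of the labels did not overlap. The ratio to Trim12c went from -0.42 ± 0.10 to -0.23 ± 0.14 and that to Trim34b from 2.86 ± 0.17 to 3.17 ± 0.11, and in both the libraries overlapped.

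Near-identical stretches limit how far counts of these neighbours can be separated. Of all windows of 81 bases, the read length, in the GENCODE M21 transcripts of Trim34b, 39.3% also occur in Trim34a, and 27.2% of those of Trim34a occur in Trim34b. Trim30a and Trim30d share 4.84% and 5.08% of theirs with each other. Of the windows of Trim12a 4.54% occur in another gene, and of those of Trim12c 14.2%, in both mainly in Trim5, which had no row. The sources used here do not say how reads that fit several genes were counted, so the split between Trim34a and Trim34b is the least certain.

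The other members of the chromosome 7 run were at like levels under both labels. Trim30a, a regulator of NF-kB and inflammasome signals in mouse cells, was at 167, 184, 202 and 176 CPM in hosts 1, 2, 4 and 5 under the wild-type label and at 181, 179, 189 and 161 CPM under the knock-out label (-0.04 ± 0.07, 95% interval -0.19 to 0.11, edgeR adjusted p = 0.798). Its neighbour Trim30d was at 35.0, 36.2, 46.7 and 37.6 CPM against 37.4, 35.0, 37.6 and 32.6 CPM (-0.12 ± 0.09, interval -0.34 to 0.09, adjusted p = 0.487). In both genes the groups overlapped and the library of host 4 was the highest under each label. Trim34a was at 34.1, 35.4, 38.4 and 34.9 CPM against 35.8, 35.2, 36.2 and 33.8 CPM (-0.02 ± 0.05, interval -0.14 to 0.10, adjusted p = 0.880). Trim34b, with the lowest CPM of the run, was at 7.17, 8.08, 9.28 and 6.81 CPM against 7.42, 7.56, 7.69 and 7.56 CPM (-0.05 ± 0.11, interval -0.29 to 0.19, adjusted p = 0.846). In these as well the groups overlapped.

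Trim21 was lower in each library labelled knock-out but did not pass the test. It encodes a cytosolic antibody receptor that sends antibody-coated virus to the proteasome, and it lies on chromosome 7 from 102557920 to 102565482. Its level was 68.2, 62.3, 80.6 and 66.2 CPM in hosts 1, 2, 4 and 5 under the wild-type label and 61.4, 54.4, 60.3 and 58.9 CPM under the knock-out label. The groups lay next to each other without overlap, from 61.4 to 62.3 CPM at the nearest point. The log2 fold change was -0.24 ± 0.08 (edgeR adjusted p = 0.0984), while DESeq2 gave -0.24 and passed (adjusted p = 0.0462).

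Trim26 showed the same arrangement on a smaller scale. This gene, known for acting on IRF3 and lying in the major histocompatibility region of chromosome 17, was at 109.6, 116, 107 and 115 CPM under the wild-type label and at 105, 103, 104 and 98.7 CPM under the knock-out label. The groups did not overlap, and the log2 fold change was -0.12 ± 0.04 (edgeR adjusted p = 0.103). It passed when total library size replaced the composition factors (-0.14, edgeR adjusted p = 0.0487). In that setting the log2 fold changes of all genes had a median shift of -0.0176.

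The remaining interferon-inducible members overlapped between the labels. Trim25, the ligase that activates the RNA sensor RIG-I, was at 77.5, 80.4, 87.2 and 88.9 CPM in hosts 1, 2, 4 and 5 under the wild-type label and at 73.2, 80.0, 84.0 and 81.9 CPM under the knock-out label (-0.07 ± 0.06, interval -0.20 to 0.07, edgeR adjusted p = 0.580). Trim56, a ligase linked to the DNA sensing adaptor STING, was at 60.6, 53.3, 61.5 and 57.8 CPM against 57.3, 49.8, 59.6 and 51.7 CPM (-0.10 ± 0.07, interval -0.25 to 0.06, adjusted p = 0.475). Trim14, a RING-less member that acts at the adaptor MAVS, was at 66.9, 70.2, 79.6 and 75.2 CPM against 73.3, 69.4, 82.8 and 69.5 CPM (0.01 ± 0.07, interval -0.15 to 0.18, adjusted p = 0.942). In each of these the 95% interval stayed within 1.25-fold. The exons of Trim14 overlap those of Nans on the opposite strand by 1356 bases, and since the strand setting of the counting is not given here, reads of the pair cannot be told apart. Summed over the 11 genes, the level was 755 to 857 CPM under the wild-type label and 736 to 817 CPM under the knock-out label.

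The chromatin members did not pass the test and had narrow intervals. Trim28, the KRAB co-repressor, was at 206, 203, 203 and 215 CPM in hosts 1, 2, 4 and 5 under the wild-type label and at 212, 204, 196 and 218 CPM under the knock-out label. Its groups overlapped, and the log2 fold change was 0.01 ± 0.04 with a 95% interval of -0.09 to 0.10 (edgeR adjusted p = 0.952). Trim24, a co-regulator of nuclear receptors, was at 70.8, 67.8, 69.9 and 74.8 CPM against 78.4, 70.2, 68.9 and 69.6 CPM (0.02 ± 0.05, interval -0.10 to 0.14, adjusted p = 0.887). Trim33, known for acting on Smad4 and the TGF-beta pathway, was at 112, 125, 119 and 123 CPM against 121, 126, 126 and 119 CPM (0.04 ± 0.04, interval -0.06 to 0.14, adjusted p = 0.691). Both overlapped between the labels. Of 3 measured members of this group of 4, 0 passed edgeR's test and 0 had an unadjusted p below 0.05. Among all 11354 genes 10.0% passed, and 2666 had an unadjusted p below 0.05. Of 11 measured partners of Trim28 out of 12 listed, 1 rose, the nucleosome remodeller Chd3 (0.41 ± 0.11, edgeR adjusted p = 0.0436), and 0 fell, a share of 9.09% against 10.0% of all genes. The histone methyltransferase gene Setdb1 (-0.12, adjusted p = 0.110), its cofactor Atf7ip (-0.12, adjusted p = 0.130) and the heterochromatin protein gene Cbx1 (-0.14, adjusted p = 0.211) did not pass.

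Among members with an NHL domain, which binds RNA or other proteins, the measured pair differed in opposite directions and neither passed. Trim32, a ligase linked to muscle upkeep, was at 15.3, 14.7, 16.5 and 14.9 CPM in hosts 1, 2, 4 and 5 under the wild-type label and at 12.7, 13.4, 12.1 and 14.2 CPM under the knock-out label (-0.23 ± 0.07, edgeR adjusted p = 0.0900). Trim3 was at 6.56, 6.83, 5.84 and 6.86 CPM against 6.88, 7.36, 7.51 and 7.51 CPM (0.17 ± 0.09, adjusted p = 0.320). In both genes the groups did not overlap, which held for 16.0% of all genes, and in Trim3 they nearly touched, at 6.86 and 6.88 CPM.

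The membrane and microtubule members overlapped between the labels in each case. Trim59, the membrane-anchored member named above, was at 109, 129, 126 and 128 CPM in hosts 1, 2, 4 and 5 under the wild-type label and at 124, 125, 126 and 134 CPM under the knock-out label (0.05 ± 0.06, edgeR adjusted p = 0.678). Trim13, a ligase at the endoplasmic reticulum, was at 3.72, 4.66, 3.42 and 5.09 CPM against 4.19, 4.99, 4.63 and 5.37 CPM (0.18 ± 0.15, adjusted p = 0.545). Trim36, which binds microtubules, was at 20.5, 26.8, 20.8 and 29.2 CPM against 29.5, 34.1, 28.3 and 27.0 CPM (0.29 ± 0.13, adjusted p = 0.199). Its relative Trim46, known for ordering microtubules in axons, was at 15.7, 14.6, 11.5 and 15.5 CPM against 17.7, 13.5, 13.0 and 14.5 CPM (0.04 ± 0.13, adjusted p = 0.915). The exons of Trim46 overlap those of Krtcap2 on the opposite strand by 239 bases.

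Of the 10 measured members with a C-terminal SPRY domain that are not on the interferon list, 0 passed edgeR's test and 2 had an unadjusted p below 0.05. Over all 11354 genes, 10.0% passed and 2666 had an unadjusted p below 0.05. Trim35 was at 91.6, 87.0, 85.2 and 85.9 CPM in hosts 1, 2, 4 and 5 under the wild-type label and 84.4, 80.1, 74.4 and 77.9 CPM under the other, with no overlap (-0.14 ± 0.05, adjusted p = 0.102). Trim62 was at 14.9, 14.2, 13.1 and 14.3 CPM against 13.1, 10.9, 13.1 and 12.2 CPM, with overlap (-0.20 ± 0.08, adjusted p = 0.170). Trim11, the next highest of the group per length after Trim35, was at 52.1, 52.4, 49.4 and 52.5 CPM against 53.6, 45.8, 56.3 and 50.4 CPM (-0.0025 ± 0.06, adjusted p = 0.990). Trim27, the T cell signalling member, was at 56.7 ± 2.61 and 56.8 ± 2.98 CPM (SD, n = 4 each) and is named for that role. The others of this group, Trim16, Trim17, Trim39, Trim41, Trim65 and Trim68, had log2 fold changes from -0.08 to 0.42. Of the windows of 81 bases of Trim17, 16.9% lie in Hist3h2a, which overlaps it on the same strand.

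The members of no listed group besides Trim8 were also uncalled. Trim44, which lacks a RING and carries a ubiquitin-protease-like zinc finger, was at 80.4, 87.8, 80.4 and 86.4 CPM in hosts 1, 2, 4 and 5 under the wild-type label and at 81.1, 86.6, 84.0 and 79.5 CPM under the knock-out label (-0.02 ± 0.05, edgeR adjusted p = 0.892). Trim45, the least expressed member, was at 1.93, 1.61, 1.92 and 1.88 CPM against 1.22, 1.48, 1.53 and 1.69 CPM (-0.31 ± 0.17, adjusted p = 0.302). Both overlapped between the labels, and Trim23 (-0.01) and Trim37 (-0.10) completed the set. Over all 35 genes the labels did not overlap in CPM for 7, that is 20.0% of the members, against 16.0% of all genes. Beside Trim8 and Trim12a these were Trim3, Trim21, Trim26, Trim32 and Trim35.

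TRIM family genes that carry other names were read beside the numbered members, with no test between the lists. Of 8 listed, 6 had a row, 2 rose and 1 fell (50.0%, against 10.0% of all genes), with a median of 0.18 on the log2 scale and 0.69 in absolute size. Mid1, the microtubule-binding midline ligase, rose from 1.66 ± 0.349 to 8.57 ± 1.41 CPM (2.37 ± 0.18, edgeR adjusted p = 9.82e-05), whereas its paralogue Mid2 fell from 2.94 ± 0.633 to 1.49 ± 0.285 CPM (-0.98 ± 0.21, adjusted p = 0.0166). Mefv, the gene of the inflammasome sensor pyrin, known from myeloid cells, held 27, 21, 20 and 36 counts in hosts 1, 2, 4 and 5 under the wild-type label and 125, 200, 465 and 314 counts under the knock-out label. Its order under the knock-out label is that of the myeloid level given above, and it rose by 3.49 ± 0.46 (adjusted p = 0.00115). The part of other cells in these values was not tested. Rnf135 (-0.33, adjusted p = 0.0636), a ligase that acts on RIG-I, Bspry (0.40, adjusted p = 0.0685) and Pml (-0.03, adjusted p = 0.716), the interferon-inducible scaffold of nuclear bodies also named TRIM19, did not pass.

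Other interferon-induced genes were read beside the TRIM members. Of 40 listed, 39 had a row, 7 rose and 1 fell (20.5%, against 10.0% of all genes), and the median change was 0.10 on the log2 scale. The risers included the oligoadenylate synthetase family genes Oas1g (1.21 ± 0.15, edgeR adjusted p = 0.000997), Oasl2 (2.28 ± 0.30, adjusted p = 0.00119), Oas2 (2.15 ± 0.29, adjusted p = 0.00147) and Oasl1 (2.31 ± 0.33, adjusted p = 0.00193). Oas2 was low throughout, at 42 to 68 counts under the wild-type label and 119 to 280 under the knock-out label. Under the knock-out label Oas2, Oasl1 and Oasl2 were lowest in host 1 and highest in host 4, as the myeloid level was, and the part of other cells in them was not tested. The RNA sensor gene Ifih1 was the one that fell (-0.35 ± 0.09, adjusted p = 0.0434). Summed over the 39 genes, the level was 3601 to 4123 CPM and 3751 to 3823 CPM, so the sum overlapped between the labels as it did for the interferon-inducible TRIM genes.

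**Figure D4:**
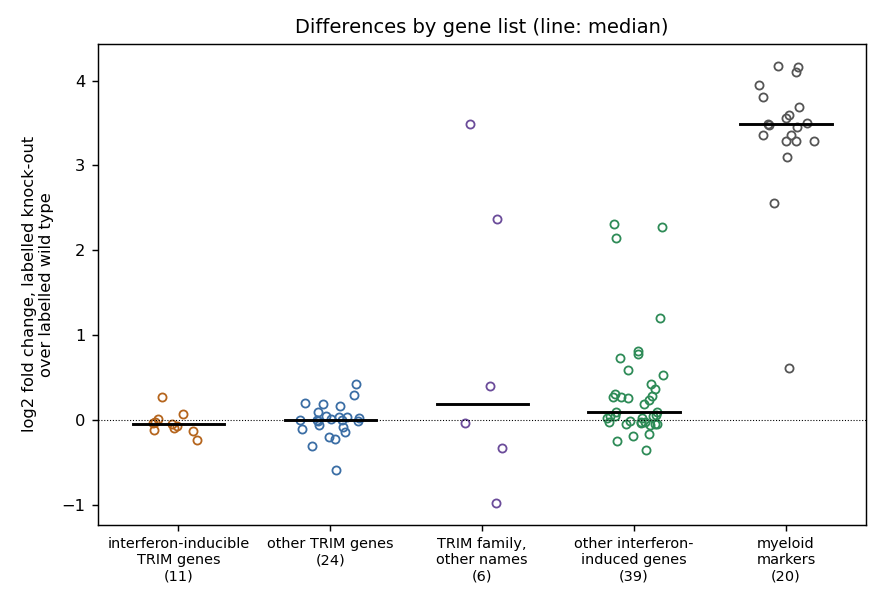
Log2 fold change, knock-out label over wild-type label, of each measured gene in 5 lists, with the number of genes below each name and the median as a line; points are spread sideways for legibility. The 11 interferon-inducible and 24 other TRIM genes lie between -0.59 and 0.42, whereas the myeloid markers have a median of 3.49.

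Genes that act before and beside the TRIM ligases were counted in the same way, against 10.0% of all genes called. Of 8 interferon receptor and signalling genes, 2 rose and 0 fell (25.0%), Ifnar2 (0.40 ± 0.06, edgeR adjusted p = 0.00172), a chain of the type I interferon receptor, and Ifngr2 (2.50 ± 0.32, adjusted p = 0.00109), the signalling chain of the interferon-gamma receptor. Ifngr2 held 24 to 42 counts in libraries of the first label and 88 to 215 in those of the second, its CPM again lowest in host 1 and highest in host 4. Of the kinases, Tyk2 (-0.18, adjusted p = 0.0847) and Jak2 (-0.18, adjusted p = 0.215) did not pass. Of 16 measured partners in innate sensing, 1 rose and 0 fell (6.25%), the ligase gene Traf6 (0.21 ± 0.05, adjusted p = 0.0224), and Ikbke (-0.16, adjusted p = 0.0853), Rbck1 (-0.12, adjusted p = 0.157) and Mb21d1 (0.21, adjusted p = 0.191) did not pass. Of 10 ubiquitin-conjugating enzymes, with which RING ligases pair, 0 rose and 1 fell (10.0%). That was Ube2l6, the conjugating enzyme of ISG15, at 8.81 ± 1.50 and 5.18 ± 1.03 CPM (-0.77 ± 0.17, adjusted p = 0.0178), while Ube2d3 (0.12, adjusted p = 0.214), Ube2v1 (-0.08, adjusted p = 0.404) and Ube2d2a (0.06, adjusted p = 0.422) did not pass.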

How the data were processed

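Poly(A) RNA of 8 libraries was read as single reads of 81 bases from a stranded kit, per the labels' protocols, and aligned with STAR to mm10, per the submitters' processing notes. The aligner's version, counting tool, annotation and strand setting were not given in the sources used here. The deposited table holds raw counts (whole numbers, with totals that differ) and gene lengths in bases, which were used for levels per kilobase. The 35 members, 11354 genes in all, were fitted together in edgeR 4.0.16 (R 4.3.3) with TMM factors, filterByExpr, which kept 11354 genes, and glmQLFTest on the label alone, with Benjamini-Hochberg adjustment over all genes and a threshold of 0.05. Each SE is the size of the log2 fold change divided by the root of F, and the myeloid level used log2 CPM with a prior count of 2. Summed marker levels were tested by two-sided exact permutation (scipy 1.17.1). Scripts were tested on simulated data. There edgeR's test called 46% of 50 genes changed 1.25-fold, 74% of 50 changed 1.5-fold and 86% of 50 changed 2-fold, in the right direction. An uncalled gene can therefore still differ by such amounts. Alternatives used limma 3.58.1 and DESeq2 1.42.0. The 4 libraries of a label carry different host numbers, and the p-values speak of the variation among those hosts' libraries. The labels do not say whether the transferred cells came from separate donor mice. Replicates of a label differed by more than counting noise, with a chi-square per gene of 13.5 to 43.3, so none was counted as a repeat.

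Members and gene lists were chosen with earlier results of these data known. The named genes are called members, the interferon list, the chromatin group, for each further group the 2 members with the smallest p and the 2 with the highest level per length, and the 4 genes of each other list with the smallest p. Trim16, Trim27 and the others that complete a group fall outside the rule, as do Ifih1, the single gene of its list that fell, and Cd3e, Cd4 and the 2 T cell genes that fell, which were named after their values were seen. Marker lists of other cells are given by counts and sums. Genes were matched by Entrez identifier to RefSeq's GRCm38 table, which held 35 of 35 members, and sequences are RefSeq's. Summed myeloid, dendritic, neutrophil, NK, CD8, epithelial and stromal markers had exact permutation p-values of 0.0286, 0.0286, 0.0286, 0.286, 0.0571, 0.857 and 0.457 between the labels, with 0 of 7 B cell markers measured. The value 0.0286 is the smallest that this test can give.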

Additional observations from a re-analysis of the deposited data

Results flagged for a closer look

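In 6 of 70 groups of 4 libraries, 2 for each of the 35 genes, 1 library stood apart from the other 3 by a gap above Dixon's 95% critical value, where chance flags about 1 in 20 groups. Under the wild-type label these were Trim59 at 109 CPM and Trim27 at 60.6 CPM in host 1, Trim45 at 1.61 CPM in host 2 and Trim11 at 49.4 CPM in host 4. Under the knock-out label they were Trim24 at 78.4 CPM in host 1 and Trim8 at 79.3 CPM in host 4. Without host 4 of the knock-out label the log2 fold change of Trim8 was -0.63 (edgeR adjusted p = 0.00104). The flags did not gather in 1 library.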

How the results depend on the processing

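Alternatives were other scalings, filters and tools, added terms, and fits without 1 or 2 libraries. The 35 genes had 665 values over 19 of them, of which 595 kept direction and side of the threshold, 4 lost a call, 3 gained one and 63 changed sign. The sign changes fell in 23 genes, and 12 kept their sign throughout. Trim8 stayed between -1.02 and -0.518 and Trim12a between 0.231 and 0.600.

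Total library size, DESeq2, and DESeq2 with the replicate block each gave 2 TRIM genes lower, with Trim26 added by the first and Trim21 by the others, and 2 interferon-inducible genes called. The replicate block in edgeR gave Trim8 at -0.585 (adjusted p = 0.00957) and Trim12a at 0.270 (adjusted p = 0.0416), and 1020 genes over the whole table against 1140. The host numbers were not taken to pair the libraries, and whether an equal number means 1 mouse is not stated: deviations of same-numbered libraries correlated at -0.0601, 0.182, -0.138 and 0.256 for hosts 1, 2, 4 and 5, and not every library correlated best with its own number. The block changed no other call of a TRIM gene in edgeR. DESeq2 called 1579 genes of the whole table, the code term 745 and the myeloid covariate 4. With the covariate 0 TRIM genes were called in any class, and the medians were 0.0248 for the interferon-inducible members and -0.0623 for the others. Without hosts 2 and 4 of the knock-out label 1 TRIM gene was called, 0 higher and 0 interferon-inducible. Leaving out 1 library at a time gave 1 to 2 called, 0 to 1 higher and 0 to 1 interferon-inducible, and 804 to 1197 genes over the table, the lowest without host 1 of the wild-type label. The cause of these shifts was not tested.

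Sign changes of uncalled genes, on the log2 scale, were as follows. With the myeloid covariate the values were Trim3 -0.197, Trim12c -0.0299, Trim13 -0.327, Trim14 -0.00837, Trim16 -0.0426, Trim17 -0.188, Trim21 0.0248, Trim23 0.162, Trim27 -0.0497, Trim30a 0.166, Trim30d 0.289, Trim34a 0.132, Trim34b 0.185 and Trim35 0.0719. With the code term they were Trim14 -0.0331, Trim27 -0.0272 and Trim44 0.00187, with limma-voom Trim14 -0.0045 and Trim27 -0.00803, and with total library size Trim14 -0.00456, Trim27 -0.0172 and Trim28 -0.00941. Trim27 was at -0.000847 with RLE factors, -0.000935 with DESeq2 and -0.00117 with DESeq2 and the block. Without hosts 2 and 4 of the knock-out label Trim11 was at 0.00383, Trim14 at -0.0389, Trim33 at -0.00581 and Trim41 at 0.0324. Leaving out 1 library gave ranges of -0.0493 to 0.0482 for Trim11, -0.047 to 0.0529 for Trim14, -0.0523 to 0.00753 for Trim23, -0.027 to 0.046 for Trim24, -0.0207 to 0.0344 for Trim27, -0.0174 to 0.0318 for Trim28, -0.0858 to 0.00677 for Trim30a, -0.0451 to 0.0114 for Trim34a, -0.113 to 0.034 for Trim34b, -0.042 to 0.0265 for Trim41, -0.0411 to 0.00292 for Trim44, -0.0685 to 0.0887 for Trim46, -0.00651 to 0.0711 for Trim59 and -0.142 to 0.00782 for Trim65.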
